A study of Mus musculus with 24 samples.

Results

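Poly(A) RNA of βTC3 cells carrying a doxycycline (DOX) inducible miR-137 insert was compared with that of βTC3 cells carrying the PB-31 control plasmid, both kept without the drug. The 6 libraries were defined by their labels, and the comparison was chosen with earlier results of these data known. They were 3 of the miR-137 line (plasmid PB-31 miR-137, no DOX) and 3 of the control line (plasmid PB-31 control, no DOX), out of 24 libraries in 8 groups. All were plated in triplicate in wells and grown for 7 d in plain DMEM. Used beside them are 3 libraries of the miR-23b line (plasmid PB-31 miR-23b cluster, no DOX), 3 of the miR-137 line with 7 d of DOX at 2 µg/ml and 3 of the control line with the same DOX. Replicate libraries within a group are 3 wells, and no source used here says whether they came from separate passages, so the spread behind every p-value may be technical. Nor do they say whether a line is 1 clone or a pool of cells. A difference made by the insert cannot be told apart from a difference between 2 populations of the same cells kept apart in culture.

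βTC3 is a mouse insulinoma line from animals in which the insulin promoter drives SV40 T antigen in beta cells. A DOX-inducible cassette is meant to be silent until the drug is added, but such promoters can be active at a low level without it. A microRNA is cut from a hairpin in a longer transcript, and its mature strand pairs through its seed, the bases near its 5′ end, with sites in the 3′ untranslated regions (UTRs) of messenger RNAs and lowers their level or translation. miR-137 is best known from neurons and from tumours, where it restrains proliferation. The comparison without DOX addresses how far the insert is transcribed before induction and how far the miR-137 and control lines differ before any drug is given.

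The mature strands of miR-137 are shown with the seed, bases 2 to 8, in capitals, since the seed defines which sites are searched for in the transcripts. Both were taken from RefSeq for GRCm38.p6, where the hairpin lies on the plus strand of chromosome 3.
mmu-miR-137-3p: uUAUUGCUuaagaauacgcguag
mmu-miR-137-5p: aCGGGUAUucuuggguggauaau
The 3p strand lies at chr3:118433901-118433923 and the 5p strand at chr3:118433865-118433887. Sites for the 3p strand were searched as AGCAATAA (an 8mer, the full seed match followed by A), AGCAATA and GCAATAA (7mers) on the transcript's own strand. Of the genes on a list of reported miR-137 targets that differed between the lines, 3 had a site in their 3′ UTR that can be shown here, with the match in capitals.
Pik3r3: gtcactgctccAGCAATAgatgaagacat
Fmnl2: agattaatcaaAGCAATAggtttgactta
Wbp1l: tgtgtattttaAGCAATAAgattcagttgc

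The 6 libraries held 16444948 to 22301042 gene counts and 19383 to 20278 genes with at least 1 count. Of all reads, 9.93% to 11.3% fell in no gene in the miR-137 line and 10.7% to 10.9% in the control line, and mitochondrial genes took 2.54% to 2.59% and 2.36% to 2.59% of gene counts. Levels are CPM, counts relative to library sizes scaled by TMM, except where called unadjusted (relative to library totals). The 10 beta cell markers summed to 14740 to 15732 CPM in the miR-137 line and 14429 to 14767 CPM in the control line. By the test used here 0 of them differed, where 2.7% of all genes did. Leukocyte markers summed to 1.93 to 3.05 and 3.00 to 3.55 CPM, fibroblast markers to 2.41 to 3.31 and 2.45 to 4.02 CPM, acinar markers to 0.331 to 0.780 and 0.423 to 0.749 CPM, duct markers to 13.1 to 14.4 and 13.7 to 14.9 CPM, and endothelial markers to 17.0 to 17.3 and 16.6 to 17.1 CPM. Lum, Cd3e, Cdh5, Cldn5, Cpa1, Krt19 and 5 other of these markers had 0 counts in all 6 libraries. In bulk RNA a smaller number of cells of a kind and less RNA per cell cannot be told apart.

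The insert was read at the transcript that holds the hairpin. Mir137 itself (ENSMUSG00000065569, GRCm38, chromosome 3, 118433857 to 118433929) had 0 counts in all 24 libraries. It lies within Gm26871 (ENSMUSG00000097311, 118430324 to 118530022, plus strand). The deposited counts hold a class of ambiguous reads, 0.749% to 0.766% of reads in the 6 libraries, which are given to no gene. Reads matching both genes would fall there, so this 0 sets no limit on the level of Mir137. Gm26871, a noncoding transcript, stood at 4.58, 3.90 and 4.57 unadjusted CPM in the miR-137 line (84, 87 and 83 counts), against 3.24, 3.41 and 2.95 unadjusted CPM in the control line (65, 56 and 56 counts). The lowest library of the miR-137 line lay above the highest of the control line. Among all genes tested, 21.0% had no overlap in one direction or the other. The fitted difference was 0.45 on the log2 scale (SE 0.15, n = 3 per group), a ratio of 1.37, and it missed the threshold, with an adjusted p of 0.0988 by edgeR's quasi-likelihood test (unadjusted p 0.00495). In the miR-23b line, which carries another insert, Gm26871 stood at 2.41, 1.79 and 2.31 unadjusted CPM. The miR-137 line exceeded the miR-23b line by 1.01 on the log2 scale (SE 0.17, edgeR adjusted p 0.000633). The miR-23b line lay below the control line by a log2 fold change of -0.56 (edgeR adjusted p 0.0571). Neither of these 2 lines carries a miR-137 insert, and the cause of the gap was not tested.

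With 7 d of DOX, Gm26871 averaged 123 ± 3.11 unadjusted CPM in the miR-137 line and 3.59 unadjusted CPM in the control line (SD, n = 3). Without DOX the miR-137 line averaged 4.35 ± 0.389 unadjusted CPM, far below its induced level. These counts do not separate reads of the insert from those of the endogenous gene. Of the neighbouring genes, Snx7, a sorting nexin, had a log2 fold change of -0.06 (SE 0.06, edgeR adjusted p 0.747) and Dpyd, the enzyme that starts pyrimidine breakdown, one of 0.21 (SE 0.16, edgeR adjusted p 0.599). Neither passed the test. The predicted genes Gm9916 and Gm24155 lie within Gm26871 on the same strand and had too few counts to test. Gm9916 had 1, 2 and 4 counts in the miR-137 line and 4, 2 and 7 in the control line. Gm24155 had 0 counts in all 6 libraries. Reads that match one of them and Gm26871 would be ambiguous, so these counts set no limit on their levels.

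**Figure D1:**
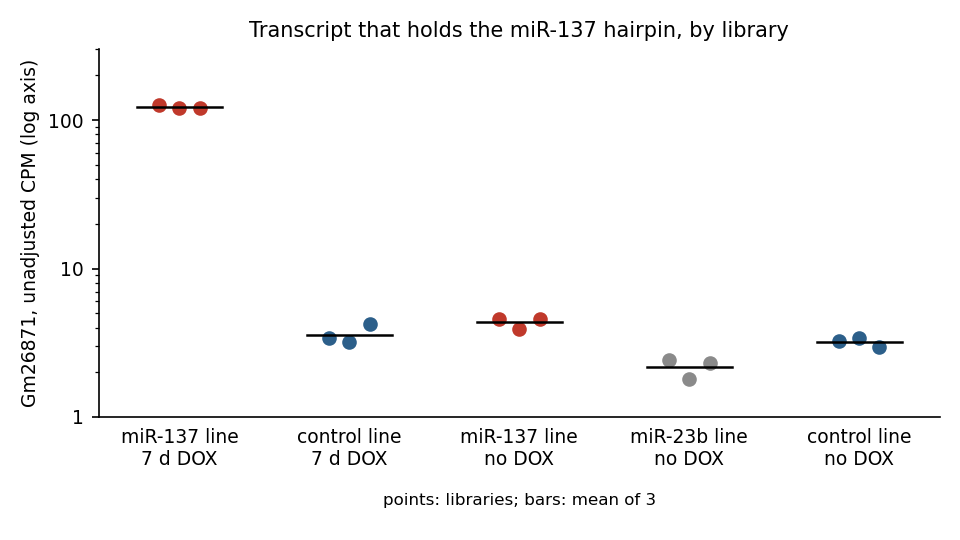
Unadjusted CPM of Gm26871, on a log axis, in the 3 libraries of 5 groups, with a bar at each mean. The miR-137 line without DOX lies at 3.90 to 4.58, above the control line at 2.95 to 3.41 and the miR-23b line at 1.79 to 2.41, while the induced miR-137 line averages 123.

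Without DOX, genes with a miR-137 site had median log2 fold changes close to that of genes without one. Their shares of calls differed, and neither was tested. Of 12952 tested genes with an annotated 3′ UTR, 589 had an 8mer. Their median log2 fold change, miR-137 line over control line, was 0.01, and 15 were called higher and 11 lower. The 10928 genes without a site had a median of 0.00057, with 209 called higher and 91 lower, so 1.87% of genes with an 8mer and 0.833% of genes without a site were lower. Among the 1435 genes with only a 7mer, 51 were higher (3.55%) and 9 lower (0.627%), with a median of 0.02. Over all genes tested, 1.89% were called higher and 0.814% lower. Genes with an 8mer have longer 3′ UTRs, with a median of 2471 bases against 1030 for genes without a site. In 3′ UTRs under 1000 bases the medians were -0.021 with an 8mer and -0.015 without a site, from 1000 to under 3000 bases 0.0019 and 0.0089, and at 3000 bases or more 0.024 and 0.027. Genes with an 8mer had the lower median in each class, and no test was made of these gaps. Against the miR-23b line, 0 of the 589 genes with an 8mer were higher and 5 lower (0.849%), and 41 (0.375%) and 61 (0.558%) of those without a site, where 0.377% and 0.531% of all genes were called. With 7 d of DOX, the same 589 genes had a median log2 fold change of -0.08, with 50 called higher and 183 lower (31.1%), against 11.7% lower among genes without a site. In that comparison 14.7% of all genes were called higher and 12.6% lower.

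The 11 genes with an 8mer that were lower without DOX were followed into the DOX libraries, whose levels do not enter the fold change without DOX, though all 24 libraries share the fitted spread. All 11 had log2 fold changes below 0 there and 9 were called lower, with a median of -0.41. With DOX, where the insert was induced, 31.1% of all 589 genes with an 8mer were called lower, with a median of -0.08. Among all 121 genes lower without DOX, 104 had the same direction and 79 were called. Robo2, a guidance receptor of axons, stood at 117, 120 and 112 CPM in the miR-137 line, against 130, 126 and 130 CPM in the control line, a log2 fold change of -0.15 (SE 0.03, edgeR adjusted p 0.0116). With DOX its log2 fold change was -0.68. Nt5dc2, which encodes a 5′-nucleotidase domain protein, had 208, 206 and 212 CPM in the miR-137 line, against 227, 223 and 223 CPM in the control line, and its log2 fold change was -0.11 without DOX and -0.53 with it. The libraries of the lines did not overlap for either gene, as for 98.3% of the 402 called genes and 21.0% of all genes tested. Sgpl1, the sphingosine-1-phosphate lyase gene, had -0.16 without DOX and -0.41 with it, and Kirrel, a nephrin-family adhesion gene, -0.25 and -0.45. These 4 genes were picked after their values were seen, and the calls of Robo2, Nt5dc2, Sgpl1 and Kirrel without DOX were lost on leaving out 2, 5, 3 and 4 of the 6 libraries in turn. Against the miR-23b line without DOX, Robo2 (-0.14) and Pappa2 (-0.54) of the 11 were called lower and the rest were not called. The log2 fold changes there were -0.07 for Nt5dc2, -0.08 for Sgpl1, -0.22 for Kirrel, -0.22 for Fgf11 and -0.09 for Wbp1l. For Foxc1, B2m, Mbd6 and Zim1 they were -0.08, 0.05, 0.07 and 0.05. Of the 15 genes with an 8mer that were higher without DOX, 3 were below 0 with DOX and 1 of these was called.

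The reported miR-137 targets, too, had a median near 0 without DOX. Of 33 listed, 28 were tested, of which 8 had an 8mer and 14 only a 7mer. Without DOX 3 were higher and 1 lower, with a median log2 fold change of 0.01 and 16 of 28 above 0, where 1.89% of all genes were higher and 0.814% lower. Pik3r3, a regulatory subunit of PI3 kinase, stood at 139, 136 and 142 CPM in the miR-137 line, against 123, 116 and 120 CPM in the control line (log2 fold change 0.21, SE 0.04, edgeR adjusted p 0.00188). Fmnl2, a formin that builds actin filaments, stood at 57.0, 55.1 and 55.4 CPM, against 48.0, 48.0 and 49.8 CPM in the control line (0.20, SE 0.04, edgeR adjusted p 0.00573). The ubiquitin ligase gene Mib1 differed by 0.13 (edgeR adjusted p 0.043). Wbp1l, with the 8mer printed above, was lower, at 83.7, 85.8 and 87.7 CPM, against 97.1, 96.7 and 94.9 CPM in the control line (-0.17, SE 0.04, edgeR adjusted p 0.0268). None of the 4 has overlapping libraries between the lines, as for 98.3% of the 402 called genes and 21.0% of all genes tested. Mib1 lost its call without any 1 of the 6 libraries and Wbp1l without 5 of them. Ezh2, Akt2, Cdc42 and Mitf, which were called lower with DOX, had log2 fold changes of -0.03, -0.07, 0.08 and -0.06 without it and did not pass the test. With DOX 4 targets were higher and 11 lower, with a median of -0.05, where 14.7% of all genes were higher and 12.6% lower.

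Across all genes the lines differed in many transcripts by small amounts. By edgeR's quasi-likelihood test 402 of 14866 genes (2.7%) differed at an adjusted p below 0.05, 281 (1.89%) higher and 121 (0.814%) lower in the miR-137 line. The median size of these differences was 0.20 on the log2 scale, which is 1.15-fold. Only 11 genes (0.074%) were called and at least 2-fold apart, 7 higher and 4 lower. No gene stood below 0.2 CPM in one line and at 1 CPM or more in the other. The count of calls fell to 170 without replicate 2 of the control line, 192 without its replicate 3, 185 without replicate 1 of the miR-137 line and 253 without its replicate 2. With library totals in place of TMM, 398 genes were called, 206 higher and 192 lower, so the 69.9% share of higher calls became 51.8%.

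**Figure D2:**
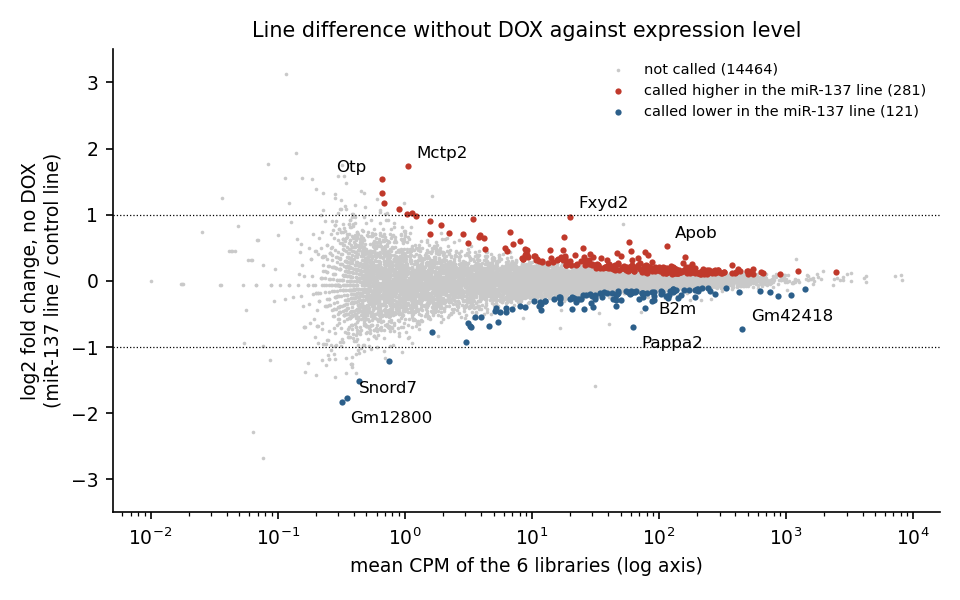
Log2 fold change without DOX, miR-137 line over control line, against the mean CPM of the 6 libraries (log axis) for 14866 genes. The 281 higher and 121 lower genes are coloured, dotted lines mark 2-fold, and the called genes beyond 2-fold lie at the low end of expression.

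All 11 of the 2-fold genes were weakly expressed. Mctp2, a C2 domain gene of the endoplasmic reticulum, had 1.49, 1.55 and 1.89 CPM in the miR-137 line, against 0.449, 0.427 and 0.582 CPM in the control line, with a log2 fold change of 1.73 (SE 0.26, edgeR adjusted p 6.36e-05). Its level in the miR-23b line was 0.575 CPM. The homeobox gene Otp followed with 1.10, 1.32 and 0.557 CPM, against 0.349, 0.305 and 0.370 CPM in the control line (1.55, SE 0.40, edgeR adjusted p 0.0236). The other higher ones were the predicted gene Gm29681 (log2 fold change 1.33), Ugt3a2, a glycosyltransferase gene (1.18), Rhox2d, a homeobox gene of the X chromosome (1.09), Fam163a (1.02) and the zinc finger gene Zfp521 (1.02). Lower were Gm12800 (-1.83), the small nucleolar RNAs Snord7 (-1.77) and Snora2b (-1.21), and Kctd19 (-1.51). The group means of these genes reached at most 1.64 CPM. All 11 lacked an adjusted p in DESeq2, whose own filter on low counts leaves such genes out. Mctp2 kept its call when any 1 of the 6 libraries was left out, and the other 10 each lost it for at least 3 of them.

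Among genes at 5 CPM or more, 15 higher genes were named by size among 250 that met the same filters. Fxyd2, which encodes a regulatory subunit of the sodium pump (ENSMUSG00000059412, chromosome 9, 45399669 to 45410278), stood at 25.6, 25.3 and 28.3 CPM in the miR-137 line, against 12.4, 12.9 and 15.1 CPM in the control line. This was the widest gap of the 15 named, 1.96-fold (log2 fold change 0.97, SE 0.08, edgeR adjusted p 4.25e-10). The miR-23b line averaged 27.3 CPM of Fxyd2, close to the miR-137 line. With DOX the gap was wider, at 19.6 CPM in the miR-137 line and 3.26 CPM in the control line.

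Apob, the structural protein of very low density lipoprotein (ENSMUSG00000020609, chromosome 12, 7977648 to 8016835), had 141, 122 and 144 CPM in the miR-137 line, against 98.9, 92.1 and 90.9 CPM in the control line (0.53, SE 0.05, edgeR adjusted p 1.75e-09). The miR-23b line again lay close to the miR-137 line, which differed from it by -0.02 (edgeR adjusted p 0.931). Myo7b, a myosin of the brush border, had 70.3, 70.5 and 68.4 CPM, against 49.2, 44.5 and 45.1 CPM in the control line (0.59, SE 0.04, edgeR adjusted p 2.44e-11). Here the miR-23b line lay between, at 59.9 CPM. Homer2, a scaffold protein of synapses, averaged 21.9 ± 1.64 CPM in the miR-137 line and 13.8 ± 0.550 CPM in the control line (SD, n = 3 each), and Ces1d, a carboxylesterase gene, 69.3 ± 3.40 and 50.3 ± 4.09 CPM. For both, too, the libraries of the lines did not overlap, which the naming rule asked for. The miR-23b line stood at 21.1 and 71.6 CPM.

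The remaining higher genes had log2 fold changes of 0.45 to 0.73. They were the secreted glycoprotein gene Cthrc1 (0.73), the ETS factor Elk3 (0.65), the secreted factor Ndnf (0.59), the clarin gene Clrn3 (0.55), the hydroxyproline dehydrogenase gene Prodh2 (0.50), Fam135b (0.48), the membrane mucin Muc4 (0.47), Plxdc2 (0.46), the A subunit of coagulation factor XIII, F13a1 (0.46), and the tetraspanin Tspan8 (0.45). Levels of these 10 genes were low to moderate, with means of 5.15 to 20.4 CPM in the miR-137 line. Muc4 and F13a1 were at 14.8 and 12.1 CPM in the miR-23b line, near the control line's 14.7 and 11.8 CPM. Fam135b and Prodh2 were at 9.98 and 8.35 CPM in the miR-23b line, against 7.34 and 5.12 CPM in the control line.

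**Figure D3:**
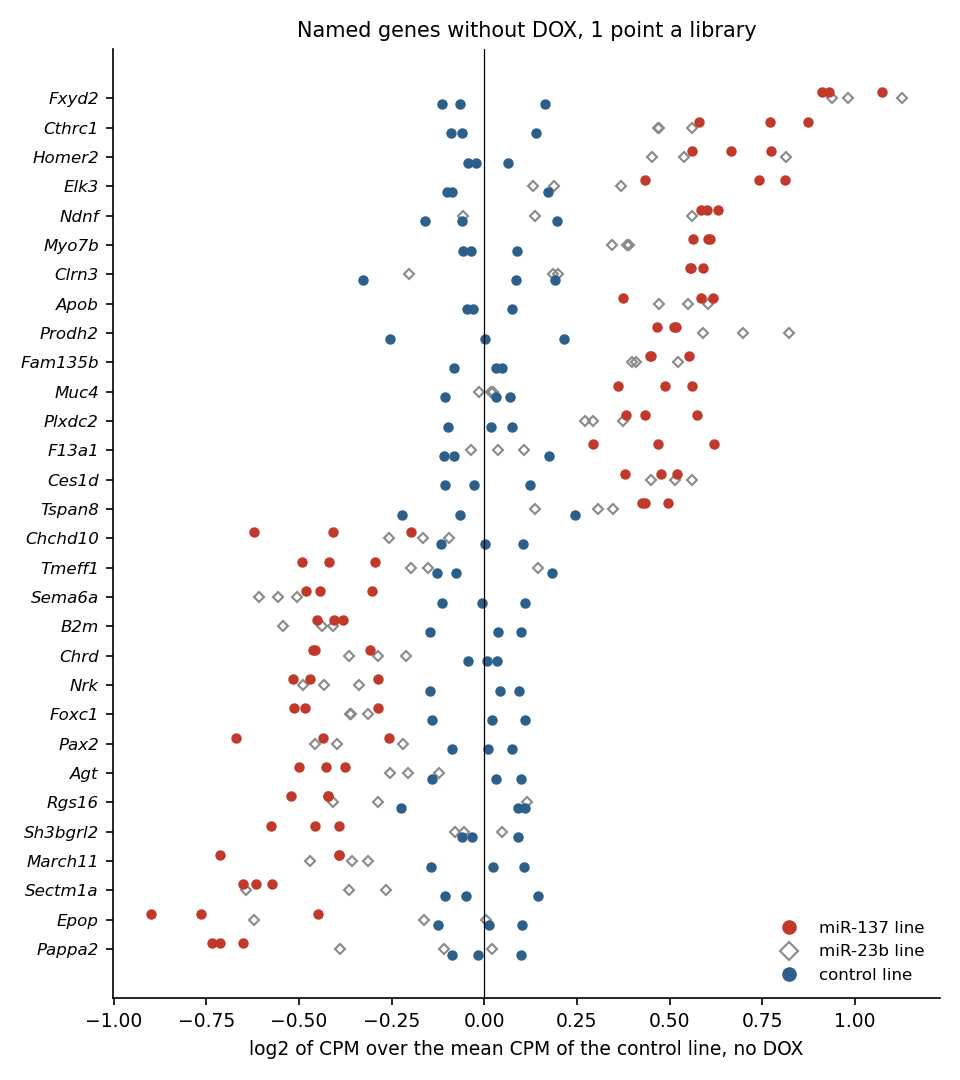
Level of the 15 higher and 15 lower named genes in each library without DOX, as log2 of CPM over the control line's mean, with red points for the miR-137 line, open grey diamonds for the miR-23b line and blue points for the control line. In these 30 genes the miR-137 and control libraries do not overlap, which the naming rule asked for, while the miR-23b line sides with the miR-137 line in some (Fxyd2, Apob, B2m) and with the control line in others (Muc4, F13a1, Sh3bgrl2).

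Pappa2 headed the lower genes. It encodes a protease that cleaves IGF-binding proteins and so frees insulin-like growth factors (ENSMUSG00000073530, chromosome 1, 158711727 to 158980490). It stood at 49.1, 46.3 and 47.0 CPM in the miR-137 line, against 82.5, 72.5 and 76.1 CPM in the control line (log2 fold change -0.70, SE 0.07, edgeR adjusted p 1.75e-09). Its 3′ UTR holds an 8mer for miR-137, as do those of Foxc1 and B2m among the lower genes named below. Against the miR-23b line, at 69.5 CPM, Pappa2 was lower by a log2 fold change of -0.54 (edgeR adjusted p 4.84e-06). With DOX its level was 77.4 CPM in the miR-137 line and 208 CPM in the control line, a log2 fold change of -1.43.

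The other 14 lower genes, of 104 that met the filters, had log2 fold changes of -0.68 to -0.39. Those that act in development were the transcription factors Pax2 (-0.43) and Foxc1 (-0.42), the BMP antagonist Chrd (-0.41), the semaphorin Sema6a (-0.40) and Epop, a partner of the polycomb repressive complex (-0.68). Signalling genes were Agt, the precursor of angiotensin (-0.43), the G protein regulator Rgs16 (-0.46), the kinase Nrk (-0.42) and Tmeff1 (-0.40). Sectm1a (-0.62), the ubiquitin ligase gene March11 (-0.48), Sh3bgrl2 (-0.47), Chchd10 of the mitochondrial intermembrane space (-0.39) and B2m (-0.41) made up the rest. Sema6a, at 24.7, 27.9 and 25.3 CPM in the miR-137 line, against 31.8, 37.1 and 34.2 CPM in the control line, and Agt turned round with DOX, where their log2 fold changes were 0.44 and 0.37.

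Genes of sterol synthesis and uptake, which SREBP2 switches on when cell sterol is short, were higher in the miR-137 line. Of 25 tested, 10 were called higher and 0 lower, where 1.89% of all genes were higher. The median log2 fold change of the list was 0.12, against 0.0025 for all genes, and 24 of 25 lay above 0. Hmgcs1, which makes HMG-CoA (ENSMUSG00000093930, chromosome 13, 119690379 to 119708260), stood at 203, 199 and 187 CPM in the miR-137 line, against 170, 164 and 160 CPM in the control line (0.25, SE 0.04, edgeR adjusted p 0.000638). Cyp51 and Msmo1, which remove methyl groups from lanosterol and its products, differed by 0.21 each (edgeR adjusted p 0.0018 and 0.00187). Their libraries did not overlap between the lines, as for 98.3% of the called genes and 21.0% of all genes tested. Also called were Sqle (0.20), Sc5d (0.21), Lss (0.18), Insig1 (0.16) and Nsdhl (0.16), which act in sterol synthesis or its control. The count was 5 without replicate 3 of the control line, 5 without replicate 2 of the miR-137 line and 6 without replicate 2 of the control line.

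The miR-23b line stood on the same side of the control line. There 19 of the 25 sterol genes were higher and 0 lower than in the control line, with a median of 0.21, where 3.59% of all genes were higher and 2.78% lower. Both comparisons use the same 3 control libraries. Directly against the miR-23b line, the miR-137 line had 0 sterol genes higher and 1 lower, where 0.377% and 0.531% of genes were called. With 7 d of DOX, 5 of the 25 were higher and 2 lower than in the control line, near the 14.7% and 12.6% of all genes, and the median was -0.01. The difference of Msmo1 changed with DOX by -0.25 (edgeR adjusted p 0.0066) and that of Cyp51 by -0.22 (edgeR adjusted p 0.0116), where 10.7% of all genes changed.

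Interferon response and MHC class I genes went the other way. B2m, the light chain of MHC class I (ENSMUSG00000060802, chromosome 2, 122147686 to 122153083), stood at 67.6, 68.6 and 65.5 CPM in the miR-137 line, against 80.8, 91.8 and 95.7 CPM in the control line (log2 fold change -0.41, SE 0.05, edgeR adjusted p 3.22e-07). H2-K1, a heavy chain, stood at 105, 114 and 103 CPM, against 121, 130 and 136 CPM in the control line (-0.26, SE 0.04, edgeR adjusted p 0.00012). The libraries of the lines did not overlap for either gene, as for 98.3% of the called genes and 21.0% of all genes tested. The heavy chain H2-D1 (-0.24), the peptide transporter Tap1 (-0.26) and the interferon-induced Ifi27 (-0.19) were the other members called. In all, 5 of 40 tested members were lower and 0 higher, where 0.814% of all genes were lower, with a median of -0.14 and 34 of 40 below 0. The count was 3 without replicate 1 and 3 without replicate 3 of the control line.

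Outside the list, H2-Q4 was lower as well (-0.27, edgeR adjusted p 4.92e-05), as 1 of 3 called among 15 genes with an H2- symbol. MHC class I genes are near copies of each other, so reads can be split between them. The miR-23b line had 65.0 CPM of B2m and 6 of the 40 members called lower than in the control line, where 2.78% of all genes were lower. Against the miR-23b line, the miR-137 line had 0 members called in either direction, where 0.908% of all genes were called. With DOX 23 of the 40 were lower and 1 higher in the miR-137 line, where 12.6% and 14.7% of all genes were, with a median of -0.31, and B2m was at 43.7 CPM in the miR-137 line and 59.1 CPM in the control line.

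**Figure D4:**
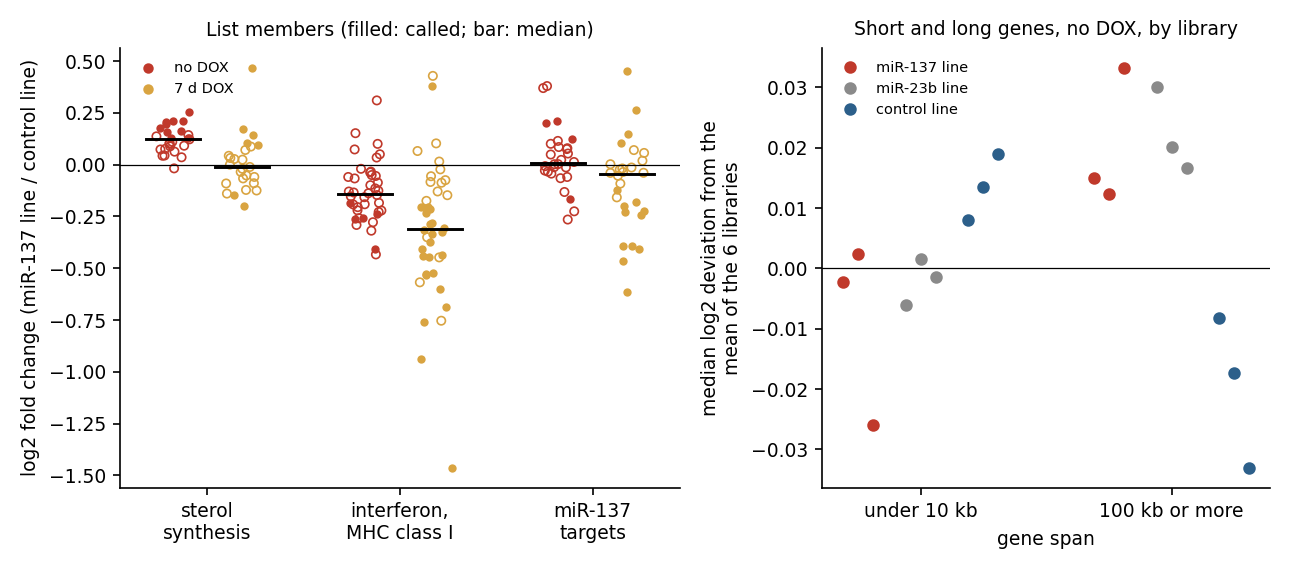
Left, log2 fold change (miR-137 line over control line) of each tested member of 3 gene lists without DOX (red) and with 7 d DOX (yellow), filled where called and with a bar at the median; sterol genes centre on 0.12 without DOX and -0.01 with it, interferon and MHC class I genes on -0.14 and -0.31, and miR-137 targets on 0.01 and -0.05. Right, median log2 deviation of genes spanning under 10 kb and 100 kb or more from the mean of the 6 libraries, in each library without DOX; long genes lie above 0 in the miR-137 and miR-23b libraries and below 0 in the control libraries.

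Beta cell transcription factors, genes of insulin production and stimulus-secretion coupling, and granin and exocytosis genes had median log2 fold changes of -0.05, 0.03 and 0.02. Each list had a larger share of members called than the 2.7% of all genes. Over all genes, 1.89% were higher and 0.814% lower. Of 19 beta cell transcription factors 2 were higher and 0 lower, namely Hnf4a, which drives liver and beta cell metabolic genes, at 87.0, 85.4 and 84.5 CPM in the miR-137 line, against 75.3, 71.4 and 71.2 CPM in the control line (log2 fold change 0.24, SE 0.04, edgeR adjusted p 0.00136), and St18 (0.14). Among 27 tested genes of insulin production and stimulus-secretion coupling, 2 were higher, Slc2a2, the glucose transporter of beta cells, at 10.4, 10.6 and 9.81 CPM in the miR-137 line, against 8.44, 7.31 and 7.14 CPM in the control line (0.42, SE 0.10, edgeR adjusted p 0.00934), and the activin receptor Acvr1c (0.16), and 1 lower, the disulphide oxidase Ero1lb (-0.12). Slc2a2 lost its call without replicate 2 or replicate 3 of the control line or replicate 2 of the miR-137 line. Of 26 granin and exocytosis genes 3 were higher, the synaptotagmins Syt11 (0.17) and Syt4 (0.17) and the priming factor Cadps (0.13).

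Of 12 other peptide hormone genes 3 were lower and 0 higher, where 0.814% and 1.89% of all genes were, with a median of -0.18. Sct, secretin, had 10.6, 9.83 and 9.58 CPM in the miR-137 line, against 15.3, 11.8 and 11.6 CPM in the control line (-0.37, SE 0.10, edgeR adjusted p 0.0304). Gip (-0.33) and Npy (-0.21) were lower too. Each of these 3 calls was lost without at least 3 of the 6 libraries in turn. With DOX, Sct was at 24.6 CPM in the miR-137 line and 41.7 CPM in the control line, while Gip turned round, at 31.9 and 26.6 CPM.

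Of 30 tested TGF-beta, activin, BMP and IGF signalling genes, 5 were higher and 0 lower, where 1.89% and 0.814% of all genes were, with a median of 0.07: the BMP target genes Id2 (0.17) and Id3 (0.17), Acvr1c (0.16), Tgfbr1 (0.12) and Igf2r (0.11). Cell cycle genes sat slightly below 0 with few calls. Mcm10, of the replication origin, was the only one of 35 G1/S genes called (-0.15), with 28 of 35 below 0 and a median of -0.05, and the centromere histone Cenpa the only one of 38 G2/M genes (-0.14), with 32 of 38 below 0 and a median of -0.04. With DOX 23 and 34 of them were lower, where 12.6% of all genes were. Immediate early genes, which respond to activity within minutes, had 0 of 26 called without DOX and a median of 0.01, but 18 of 26 higher with DOX, where 14.7% of all genes were. Other calls were Cd24a (-0.30) of 12 progenitor genes tested, and Trib3 (-0.24) and Chac1 (-0.21) of 35 ATF4 and amino acid supply genes. The latter list had 19 members above 0. Hspb8 (0.14) and Hspd1 (0.14) were called of 16 heat shock genes, Scd2 (0.13) of 15 fatty acid genes and Krt18 (0.31) of 19 adhesion genes. Atf6 (0.12) was higher and Ero1lb (-0.12) lower of 23 unfolded protein response genes. Cox8a (-0.26), whose libraries overlapped between the lines, was called of 45 oxidative phosphorylation genes. Of 39 imprinted genes, Ube3a (0.13) and Igf2r (0.11) were higher and Zim1 (-0.18) lower. Over all genes, 1.89% were higher and 0.814% lower. The lists of glycolytic, ribosomal protein, mitochondrially encoded, p53, NRF2, circadian, protocadherin, miRNA machinery, germline and sex chromosome genes had 0 members called, with medians of -0.06 to 0.13.

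The miR-23b line shows how far another engineered line of the same cells lay from the control line. Without DOX it differed from the control line in 947 genes (6.37%) and from the miR-137 line in 135 genes (0.908%), 56 higher and 79 lower in the miR-137 line. The count of 947 fell to 479 without replicate 2 of the control line, and that of 135 to 81 without replicate 3 of the miR-137 line. On the first principal component of the 9 libraries without DOX (18.9% of variance), the miR-137 libraries scored -1.85 to 4.97, the miR-23b libraries 6.66 to 15.1 and the control libraries -16.8 to -9.53. The miR-137 line thus lay between the other 2 lines on that axis. On the second component (15.1%), the miR-137 libraries scored -17.7 to -7.52, the miR-23b libraries -1.34 to 13.9 and the control libraries 5.15 to 5.96, so the miR-137 line lay apart from both there. The comparisons of both miRNA lines with the control line share the control libraries, so genes alike in both, such as Fxyd2, Apob, B2m and Hmgcs1, rest partly on the same 3 libraries.

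At 5 CPM or more, 250 higher and 104 lower genes met the filters against the control line. Of these, 12 and 10 were also called the same way against the miR-23b line and kept their direction with DOX. A smaller set of them was also called in that direction with 7 d of DOX, 10 genes higher and 8 lower. With DOX, 14.7% of all genes were called higher and 12.6% lower. Both comparisons without DOX use the same 3 miR-137 libraries. Gc, the vitamin D binding protein (ENSMUSG00000035540, chromosome 5, 89417522 to 89457898), had 177, 177 and 183 CPM in the miR-137 line, against 133, 141 and 145 CPM in the control line and a mean of 138 CPM in the miR-23b line. Its log2 fold change against the control line was 0.36 (SE 0.04, edgeR adjusted p 3.34e-08) and against the miR-23b line 0.37 (edgeR adjusted p 6.59e-08). Cd200, which encodes an immune-inhibitory membrane ligand, had 76.7, 77.6 and 76.0 CPM, against 60.1, 59.4 and 61.9 CPM in the control line, and Gatm, the first enzyme of creatine synthesis, 75.1, 81.4 and 78.4 CPM, against 62.8, 66.0 and 65.4 CPM. The libraries of the lines did not overlap for these 3 genes, which the naming rule asked for. Myo7b and Muc4 were the 2 largest of the higher set.

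Pappa2 was the largest of the lower set, followed by the prolactin receptor Prlr (-0.27 against the control line and -0.32 against the miR-23b line), the ADP receptor P2ry1 (-0.25 and -0.25), Tex13b (-0.24 and -0.28) and Afap1, an actin filament binding protein (-0.24 and -0.23). Prlr averaged 22.2 ± 1.80 CPM in the miR-137 line and 26.7 ± 1.95 CPM in the control line (SD, n = 3 each). Its libraries did not overlap, which the naming rule asked for. With DOX the log2 fold changes of these 4 genes were -0.76, -0.24, -0.33 and -0.52. Prlr lost its call without replicate 2 or 3 of the control line or replicate 2 of the miR-137 line, and P2ry1 without replicate 3 of the control line or replicate 2 of the miR-137 line. Tex13b lost it without 5 of the 6 libraries in turn and Afap1 kept it.

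The DOX libraries give a second reading of the difference between the lines in libraries whose levels do not enter the fold changes without DOX, though the fitted spread is shared by all 24 libraries and the insert was induced. There 4063 genes (27.3%) differed between the miR-137 and control lines. Of the 402 genes called without DOX, 347 (86.3%) had the same direction and 260 (64.7%) were also called in it, while 11 were called in the opposite direction. Over all 14866 genes the same direction was seen in 58.6%, and 2858 genes had it with a call. The shares were alike for higher genes (243 of 281 in the same direction) and lower genes (104 of 121). Median differences were of like size, 0.19 without and 0.20 with DOX for the higher genes and -0.24 and -0.22 for the lower.

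For 130 of the 402 genes (32.3%) the difference between the lines changed with DOX, where 10.7% of all genes did, in a test that includes the libraries that chose these genes. The gap between the lines widened for Fxyd2 by 1.62 on the log2 scale and for Myo7b by 0.55 (edgeR adjusted p 5.65e-10 and 3.67e-08). Fxyd2 itself fell with DOX in both lines, by a log2 fold change of -2.04 in the control line and -0.43 in the miR-137 line. Slc26a3, an anion exchanger of the gut, had 3.92, 2.87 and 3.96 CPM in the miR-137 line, against 2.35, 2.07 and 2.06 CPM in the control line without DOX. Its log2 fold change was 0.71 without DOX, where its call was lost without 4 of the 6 libraries in turn, and 2.36 with it. The control libraries with DOX had more genes detected than any other group, which touches every value with DOX.

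**Figure D5:**
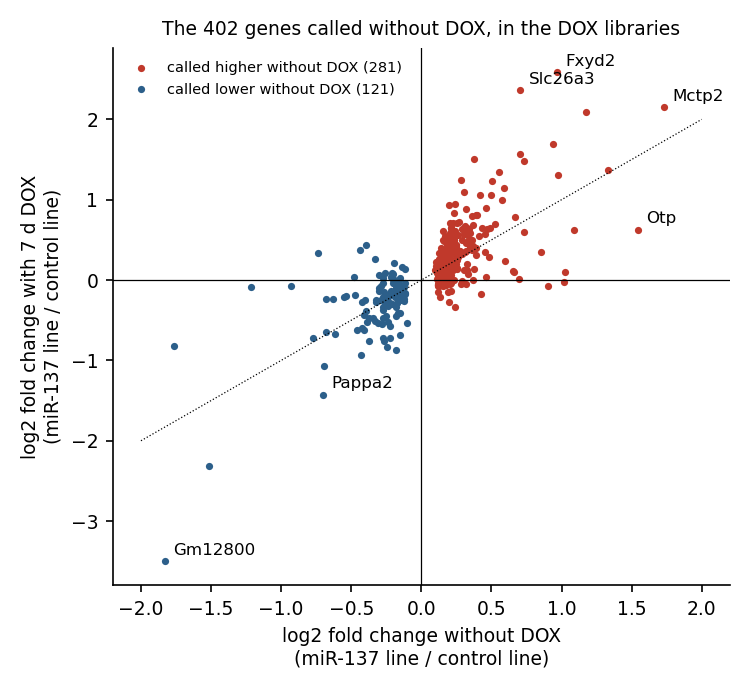
Log2 fold change of the miR-137 line over the control line with 7 d DOX against that without DOX for the 402 genes called without DOX, red where higher and blue where lower; the dotted line marks equal values. Of these genes 347 lie on the same side of 0 in both.

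Higher and lower genes differed in length and base composition. The higher genes spanned a median of 74.8 kb of genome and the lower genes 13.7 kb, against 21.4 kb for all tested genes. Genes of 100 kb or more made up 110 of the 281 higher genes (39.1%) and 11 of the 121 lower genes (9.09%), against 13.1% of all. The median GC content of the longest transcript was 45.4% in higher genes, 53.6% in lower genes and 49.5% in all. The shift was small but ran through all genes: the median log2 fold change was -0.024 under 10 kb, -0.008 from 10 to 30 kb, 0.020 from 30 to 100 kb and 0.040 at 100 kb or more. By GC content it was 0.039 under 45% and -0.044 at 55% or more. With DOX, the 4 span classes had medians of 0.006, -0.016, -0.008 and 0.001.

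Per library, the 1952 genes of 100 kb or more had median log2 deviations of 0.015, 0.012 and 0.033 in the miR-137 line and -0.008, -0.017 and -0.033 in the control line, with 0.030, 0.020 and 0.017 in the miR-23b line. The control libraries thus lay below all 6 libraries of the miRNA lines. For transcripts under 45% GC, the values were 0.020, 0.014 and 0.028 in the miR-137 line and -0.039, -0.014 and 0.002 in the control line. Sterol genes had a median span of 17.9 kb and a median GC content of 49.6%, near those of all genes, and interferon and MHC class I genes 12.7 kb and 51.0%. With each library corrected for span and GC content, a step added after the values were seen, 330 genes were called, 207 higher and 123 lower, of which 232 were among the 402. The sterol count was then 11 of 25 higher, the interferon and MHC class I count 3 of 40 lower, and Mib1 and Fmnl2 were no longer called among the targets. The part that span or base composition plays in the other differences was not tested.

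Some RNAs that poly(A) selection does not aim at varied widely between wells. Gm42418, a chromosome 17 locus known to hold ribosomal RNA sequence, stood at 373, 284 and 364 CPM in the miR-137 line, against 736, 590 and 370.5 CPM in the control line. It was called lower (log2 fold change -0.74, SE 0.20, edgeR adjusted p 0.0341), but the lines overlapped and the call was lost without any 1 of 5 of the 6 libraries. The small predicted gene Gm23935 stood at 26.2, 14.3 and 6.63 CPM, against 57.4, 48.0 and 36.7 CPM in the control line (edgeR adjusted p 0.099). The mitochondrial light-strand gene mt-Nd6 stood at 56.9, 78.5 and 64.9 CPM, against 18.7, 21.7 and 70.3 CPM in the control line (edgeR adjusted p 0.168). Control replicate 3 lay with the miR-137 line in Gm42418 and mt-Nd6. The share of such RNA in the other differences was not tested.

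By chromosome, median log2 fold changes lay between -0.020 and 0.033 on the autosomes and the X chromosome. Chromosome 17, which carries the MHC, had 5 higher and 16 lower genes of 714 tested, where 1.89% and 0.814% of all genes were. Every other autosome and the X chromosome had more higher than lower genes.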

How the data were processed

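RNA of 24 libraries in 8 groups was measured, of which the comparison uses 6. Per the labels, polyA libraries were made with a stranded kit. The deposited files hold raw counts per gene, summed by the authors without normalization, and a normalized table. Its unit is not stated, and it was read as TPM from column sums of 999999.3 to 1000001.3. This deposited TPM table lists 12 genes with over 1000 counts at 0 and served only as an alternative. The submitters' processing notes name RSEM 1.2.19, featureCounts, HTSeq 0.6.1, STAR 2.4.0g and cutadapt 1.3, with the builds mm10 and GRCm38. Which tool made which table is not stated there, but both deposited tables are named for HTSeq. Reads aligned to more than 1 place, 26.5% to 27.1% of reads in the 6 libraries, are not in the gene counts, so near-identical genes are less certain. The counts of wells of a group differed by more than sampling noise (chi-square per degree of freedom 1.80 to 3.00).

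Counts of all 24 libraries were fitted in R 4.3.3 with edgeR 4.0.16 (TMM, filterByExpr, 8 group means, 14866 genes, coefficient of biological variation 3.00%) and tested by the quasi-likelihood F test with Benjamini-Hochberg adjustment at 0.05. SE is the size of the log2 fold change over the square root of F. "Changed with DOX" tests the difference of the line differences. Named genes were the 15 largest in each direction that passed, reached 5 CPM, did not overlap between lines and had an ordinary symbol, up to 3 called members of each of 30 lists, up to 5 in each direction apart from both lines, called targets and the insert locus. The 2-fold genes, further list members (5 sterol genes, H2-D1, Ifi27, Tgfbr1, Igf2r, and the targets Ezh2, Akt2, Cdc42 and Mitf), Robo2, Nt5dc2, Sgpl1, Kirrel, Slc26a3, H2-Q4, Gm42418, Gm23935 and mt-Nd6 were added after their values were seen. The comparison, members and lists were chosen with earlier results of these data known. Symbols and UTRs came from GENCODE M21. The fit was tested on simulated data. Some genes and the promoter sequences are not reported here. No source used here says that replicate numbers pair the wells, so no block was used. Correlations of same-numbered deviations were 0.0826, 0.0544 and -0.0219, and those between unlike numbers -0.0887 to 0.0364. With 3 wells a group these cannot settle whether wells were paired. Alternatives were DESeq2 1.42.0, limma 3.58.1 on log2(TPM + 0.5), other size factors, filters and sets of libraries, a replicate block, each library left out and a correction for gene span and GC content. Depth limits precision: in the shallowest library, with 16444948 gene counts, a count of 0 allows a true level of up to 3 counts, by counting error alone.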

Additional observations from a re-analysis of the deposited data

Results flagged for a closer look

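The difference between the miR-137 and control lines was itself different with 7 d of DOX for 36 of the named genes, by the interaction test of edgeR's fit at an adjusted p below 0.05 over all genes. By the same test 10.7% of all genes changed, and 32.3% of the 402 genes called without DOX. Each value below is the log2 fold change with DOX minus that without DOX, and no explanation was tested. All these tests share the libraries without DOX that chose most of the genes.

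Gm26871, which holds the miR-137 hairpin, changed by 4.66. Among genes higher without DOX, the gap widened for Slc26a3 (1.65), Fxyd2 (1.62), Clrn3 (0.80), Prodh2 (0.56), Myo7b (0.55), Gc (0.44), Syt11 (0.38), Hnf4a (0.38) and Fmnl2 (0.25). It shrank or turned for Fam163a (-0.93), Slc2a2 (-0.59), F13a1 (-0.43), Msmo1 (-0.25), Cyp51 (-0.22), Hspd1 (-0.18), Atf6 (-0.17), Acvr1c (-0.17) and Scd2 (-0.15).

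Among genes lower without DOX, the gap widened for Pappa2 (-0.72), Trib3 (-0.59), Robo2 (-0.53), Pax2 (-0.51), Prlr (-0.49), Nt5dc2 (-0.43), Sct (-0.38), Afap1 (-0.28) and Sgpl1 (-0.25). It shrank or turned for Gm42418 (1.07), Sema6a (0.84), Agt (0.81), Gip (0.59), March11 (0.51), Cox8a (0.35) and Cd24a (0.20). Gm23935, not called without DOX, changed by 2.82.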

How the results depend on the processing

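Of 93 named genes called without DOX, 22 kept the call under all 16 alternatives, among them Fxyd2, Apob, Myo7b, Homer2, Gc, Hnf4a, Hmgcs1, Pappa2, B2m and H2-K1, and 0 of 1476 values reversed. Of the 402 calls, 399 were kept with DESeq2's type of size factors in edgeR, 327 of 398 calls with library totals, 311 of 331 with DESeq2 and 232 of 330 after correction for span and GC content. With limma on TPM, 147 genes were called, and the cause was not tested for this or any change below. There, 28 genes differed from the miR-23b line, 413 between the miR-23b and control lines, and 1 target was higher, 5 sterol genes higher and 3 interferon and MHC class I genes lower. After the span and GC correction 1 target was higher and 3 interferon and MHC class I genes lower. The 11 genes called at 2-fold became 20 without a filter on low counts, 6 at 1 CPM or more in 3 libraries, 7 in the 6 libraries alone, 2 on TPM and 0 with DESeq2, which gave all 11 no adjusted p. Without that filter 255 genes differed from the miR-23b line. Higher calls made up 61.8% of 508 without the filter, 57.1% of 380 in the 6 libraries alone, 58.9% of 492 in the 9 libraries without DOX and 54.6% of 416 with a replicate block, which kept 310 of the 402. No source used here says that wells with the same replicate number share more than the number.

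Leaving out each library in turn gave 170 to 294 calls, 3 to 10 at 2-fold, 81 to 142 against the miR-23b line, 479 to 944 between the miR-23b and control lines, 4050 to 4118 with 7 d of DOX and 1290 to 1392 changed with DOX. Sterol genes higher numbered 5 to 8, interferon and MHC class I genes lower 3 to 6, and targets 2 higher in each and 0 to 1 lower. Gm26871 stayed uncalled throughout, with edgeR, limma or DESeq2 adjusted p of 0.0721 to 0.278. Depth limits the weakest genes: those called at 2-fold had group means of at most 1.64 CPM.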
